A study of Homo sapiens with 22 samples.

Results

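Drug-susceptible WM989 melanoma cells that had been treated with a PI3K inhibitor were compared with untreated drug-susceptible cells of the same experiment. The cells were those of the PI3Ki and Control libraries that the authors had not assigned to the primed state, a rare state from which resistant colonies arise under BRAF and MEK inhibition. There were 17131 such cells out of 40021 in the treatment experiment and 54001 single cells in the whole series. Control replicates r1 and r2 held 4058 and 3527 cells, and PI3Ki replicates r1 and r2 held 3837 and 5709 cells. Primed cells, which the authors' clusters 4 and 10 define, were left out, and these were 259 of 7844 Control cells and 95 of 9641 PI3Ki cells.

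WM989 A6-G3 is a clone of a human melanoma line with an activating BRAF mutation, so that both replicates and all conditions come from 1 clone. Lineage-barcoded cells of 1 well per replicate were expanded, spread over plates and treated for 5 days. The PI3Ki plates received GDC-0941 at 2 µM, a small-molecule inhibitor of class I PI3K. The Control plates were left untreated, and no vehicle is named for them. A further pair of plates received the TGF-beta receptor inhibitor LY2109761 (TGFBRi) and another pair received TGFB1. Gene expression was measured by droplet single-cell RNA-seq of 3′ ends, which counts unique molecular identifiers (UMIs). Replicates are called Mix and Primed in the sample labels and r1 and r2 in the labels of the cells. Which is which was not settled, so a difference in the starting cells cannot be told apart from the replicate. The 2 wells were handled in parallel. The fit takes out the difference between the wells, and what remains is how far differences between conditions vary from well to well. For each gene this variation has 3 residual degrees of freedom. The fit combines it with a value shared over genes, which has a median weight of 19.7 prior degrees of freedom. The p-values and standard errors thus lean mostly on the shared value. They do not measure how well the 2 wells agree for a single gene.

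Class I PI3K makes the lipid PIP3 downstream of receptor tyrosine kinases, and PIP3 recruits and activates the kinase AKT. AKT holds the FOXO transcription factors out of the nucleus and, through mTORC1, promotes translation, glycolysis and lipid synthesis. In melanoma the pathway acts beside the BRAF and ERK cascade and bears on survival and on drug tolerance.

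The 4 libraries held between 69954297 and 121456243 UMIs, with a median of 17423 to 21929 UMIs and 4093 to 4814 genes per cell, and the median percent of mitochondrial UMIs was between 10.5 and 11.5. The melanocytic markers fixed for the check, 10 of 10, were above 1 CPM, a library's UMIs of a gene scaled to a common total, in these cells, with a summed level of 5941 and 5983 CPM in Control and 7073 and 7503 CPM in PI3Ki. Of the markers of other cell types, those of leukocytes and of endothelium summed to under 1 CPM in every library, and COL3A1, DPT, KRT5, KRT14, KRT1, CD3E and NKG7 had no UMI. The keratinocyte and epithelial list summed to 110 to 112 CPM in Control and 126 to 129 CPM in PI3Ki, almost wholly from the keratins KRT8 and KRT18, and the fibroblast list to 30.2 and 30.6 CPM against 21.2 and 20.8 CPM, almost wholly from LUM. The part of these markers in the results was not tested. Of the 17452 cell barcodes of the 4 libraries, primed cells included, 33 occurred in more than 1 library.

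The UMIs of each library's cells were added up gene by gene, and the sums of all 8 libraries of the experiment were fitted together with terms for condition and replicate. Below, CPM is further scaled by TMM factors, except within clusters, and log2 differences are PI3Ki minus Control. The value after ± is the standard error of the fit with 2 libraries a side. It leans mostly on variation shared over genes and is not the spread of that gene between r1 and r2. An adjusted p is from edgeR's quasi-likelihood test with Benjamini-Hochberg adjustment over 17914 genes. A sum cannot tell more cells with a transcript from more transcripts per cell. Where the libraries of 2 conditions are said not to overlap, this is a description. With 2 libraries a side it can arise by chance, and its share over all genes is not given. PI3K inhibition was followed by 1056 genes that were higher, 5.89% of the genes tested, and 1114 that were lower, 6.22%, which makes 12.1% in either direction. Most of these differences were small. Their median size was 0.36 among the higher and 0.37 among the lower genes, and 59 genes rose and 85 fell by more than 2-fold. The sign was the same in both replicates for 1054 of the higher and 1113 of the lower genes. These genes were called on the same libraries, so this agreement was largely set by the call, and it is no separate evidence. The counts leaned on every library, since leaving out Control r1, Control r2, PI3Ki r1 or PI3Ki r2 left 574, 324, 490 or 271 higher and 663, 501, 482 or 361 lower genes. Without the replicate term 249 genes were higher and 321 lower. Scaled to total UMIs with no TMM factors, under which the median over all genes was -0.09 and not 0.00, 583 were higher and 2825 lower, so that 17.1% of the calls were rises as against 48.7% with the factors.

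**Figure D1:**
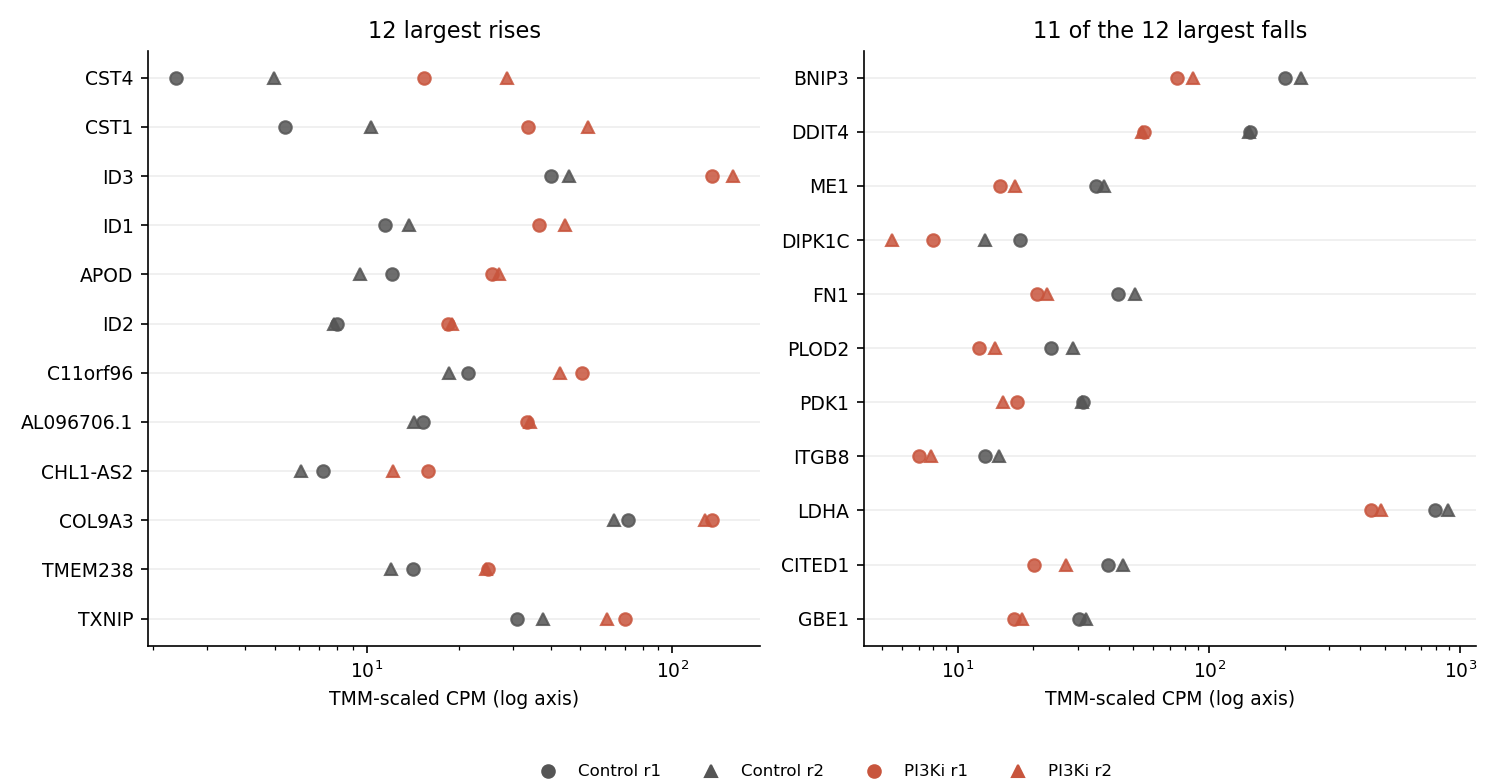
Normalised expression in CPM, on a log axis, of the 12 largest rises and 11 of the 12 largest falls in drug-susceptible cells, with 1 point per library (Control and PI3Ki, replicates r1 and r2). ID3 lay at 40.0 and 46.0 CPM in Control and at 135 and 157 CPM in PI3Ki, and BNIP3 at 200 and 232 CPM against 74.6 and 85.9 CPM.

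Among the largest rises were 3 of the 4 ID genes. ID proteins bind basic helix-loop-helix transcription factors and keep them off DNA, and the ID genes are classical targets of BMP and SMAD signalling. ID3 (chr1:23557926-23559501, hg38, minus strand) was at 40.0 and 46.0 CPM in Control r1 and r2 and at 135 and 157 CPM in PI3Ki r1 and r2. Both treated libraries lay more than 2-fold above both untreated ones. The difference was 1.76 ± 0.08 on the log2 scale, a 3.39-fold rise with an edgeR adjusted p of 6.2e-13. ID1 (chr20:31605283-31606515, plus strand) was at 11.5 and 13.8 CPM in Control and at 36.5 and 44.6 CPM in PI3Ki, a rise of 1.69 ± 0.08 (adjusted p = 7.5e-13, edgeR). ID2 (chr2:8678845-8684461, plus strand) was at 8.03 and 7.81 CPM in Control and at 18.5 and 19.0 CPM in PI3Ki, a rise of 1.25 ± 0.08 (adjusted p = 2.2e-10, edgeR). ID4 went the other way, from 25.5 and 27.0 CPM to 19.2 and 20.6 CPM, and fell by 0.40 ± 0.07 (adjusted p = 0.00035, edgeR). The levels of the 4 genes did not overlap between the conditions. In the list of ID genes and BMP feedback, 4 of 14 tested members were higher, the fourth being the type II BMP receptor BMPR2 with 0.42 ± 0.06, and 1 was lower, beside 5.89% and 6.22% over all genes, with a median of 0.22 against 0.00 over all genes tested. That median was 0.36 without Control r2, 0.15 without Control r1 and 0.11 with no TMM factors, where 3 members were lower.

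The share of cells with an ID3 UMI was larger after treatment. It comes from the same counts and rises with the level per cell, so it is no separate evidence of the rise. With every cell thinned to 5000 UMIs, the share was 14.1% and 15.0% in Control and 37.3% and 40.1% in PI3Ki. Without thinning it was 33.2% and 37.0% against 64.0% and 69.5%. No cell type that lacks ID3 was present to measure the share that free RNA gives. Values within clusters are in CPM without TMM factors. The factors of the main fit were 1.004 and 1.031 in Control and 0.9593 and 0.9426 in PI3Ki. With them each within-cluster difference would be somewhat higher, so counts of clusters by sign can differ. In each of the 6 authors' clusters with at least 100 cells in every one of the 4 libraries, ID3 was higher in both replicates. The mean rise ran from 1.19 in cluster 8 to 1.81 in cluster 5 on the log2 scale. In the TGFBRi libraries, by contrast, ID3 lay at 5.36 and 5.27 CPM, below the Control level.

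Other large rises were of genes outside that list. The salivary-type cystatins CST4 (chr20:23685640-23689038, minus strand) and CST1 (chr20:23747562-23751268, minus strand), inhibitors of cysteine proteases, had the largest rises among genes of at least 10 CPM. CST4 was at 2.38 and 4.99 CPM in Control and at 15.4 and 28.7 CPM in PI3Ki, a rise of 2.61 ± 0.14 (adjusted p = 4.2e-12, edgeR). CST1 was at 5.39 and 10.3 CPM against 33.8 and 52.8 CPM, a rise of 2.48 ± 0.12 (adjusted p = 1.7e-12, edgeR). In both conditions r2 was above r1, while the difference between conditions was similar in r1 and r2. The pair are close paralogs, so that reads can have been split between them and the value of each is uncertain. APOD, a lipocalin that carries small hydrophobic molecules, was at 12.1 and 9.48 CPM against 25.6 and 27.2 CPM (1.31 ± 0.09). COL9A3, a chain of collagen IX, was at 71.3 and 64.3 CPM against 135 and 127 CPM (0.96 ± 0.08). C11orf96 (1.22), AL096706.1 (1.19), the antisense RNA CHL1-AS2 (1.07) and TMEM238 (0.93) complete the 12 largest rises with TXNIP. Within clusters, without TMM factors, 11 of these 12 genes had the same sign in both replicates of all 6, and CHL1-AS2 in 5 of 6. The 12 were chosen by sign and size in the sums of the same cells, so this was largely set by the choice.

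TXNIP (chr1:145992435-145996579, minus strand) is an arrestin-like protein that binds thioredoxin and limits glucose uptake, and it is a known FOXO target. It was at 31.0 and 37.7 CPM in Control and at 69.7 and 61.0 CPM in PI3Ki, with no overlap. The rise was 0.92 ± 0.08 (adjusted p = 7.5e-08, edgeR), and it was larger in r1, with 1.17, than in r2, with 0.69. In the TGFB1 libraries TXNIP lay at 91.9 and 81.5 CPM, above both PI3Ki libraries. Of the 13 named genes that rose, by the rule of the 12 largest rises and the fixed genes, 6 had a window in the RefSeq promoter table, and TXNIP was the one that holds the forkhead motif GTAAACA, searched on both strands in the 250 bases before and 50 after each start. The window lies at chr1:145996530-145996829 (GRCh38.p14, minus strand) and the motif, in capitals, begins 124 bases before the start. It is shown since FOXO factors bind this motif.
TXNIP promoter: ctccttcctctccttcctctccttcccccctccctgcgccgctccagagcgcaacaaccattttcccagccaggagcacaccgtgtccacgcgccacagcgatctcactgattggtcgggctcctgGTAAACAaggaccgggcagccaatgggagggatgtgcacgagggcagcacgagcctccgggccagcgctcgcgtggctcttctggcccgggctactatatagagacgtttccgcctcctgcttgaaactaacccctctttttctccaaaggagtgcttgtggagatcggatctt
The motif is in 3.42% of all 35116 promoter windows, in 2.68% of those of the genes tested, in 3.79% of those of the higher and 2.86% of those of the lower genes. It is in 13.7% of the 51 windows of the FOXO list. By gene it is in 6 of the 31 with a window, 19.4%, as against 4.19% of all genes and 3.65% of the genes tested. The list was put together as FOXO targets and receptor feedback, so its share describes the list and not these data.

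Most genes that are read as FOXO output or as feedback of PI3K inhibition on receptors did not pass the test. Among 34 tested members of this list 6 were higher and 3 lower, with a median of 0.05, beside 5.89% and 6.22% over all genes. The number of higher members was 3 without Control r2, 3 without PI3Ki r2 and 2 without clusters 6 and 11, and 4 were higher and 5 lower with no TMM factors. ERBB3, the receptor for neuregulins that couples directly to PI3K, was at 60.8 and 61.3 CPM in Control and at 90.2 and 88.4 CPM in PI3Ki. It rose by 0.55 ± 0.07 (adjusted p = 4.4e-06, edgeR) and did not overlap between conditions. Within clusters, without TMM factors, the mean rise of ERBB3 ran from 0.07 in cluster 7 to 0.53 in cluster 2. In the TGFB1 libraries ERBB3 was also above Control, by 0.63 (adjusted p = 2.0e-07, edgeR). YPEL3 (0.59 ± 0.10) and KLHL24 (0.41 ± 0.07) were higher too, though YPEL3 was no longer called without PI3Ki r2 and KLHL24 without Control r2 (adjusted p = 0.063 and 0.071, edgeR). In G2M cells alone neither was called (adjusted p = 0.60 and 0.942, edgeR), nor without clusters 6 and 11. Within clusters, without TMM factors, the sign was positive in both replicates in 2 of 6 for YPEL3 and in 1 of 6 for KLHL24. With the factors these counts can be larger. The fixed genes PIK3IP1, IRS2, INSR, IGF1R, FOXO1, FOXO3, CCNG2, CDKN1B and SESN3 were not called, with log2 differences between -0.20 for IRS2 and 0.23 for INSR. IRS2, an adaptor between insulin-type receptors and PI3K, came nearest to the threshold with 39.9 and 43.8 CPM against 35.8 and 37.3 CPM (adjusted p = 0.069, edgeR).

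Of the kinases, phosphatases and regulators of the PI3K, AKT and mTOR pathway, 3 of 37 were higher and 5 lower, beside 5.89% and 6.22% over all genes, with a median of 0.00. With Control r1, Control r2, PI3Ki r1 or PI3Ki r2 left out 1 was higher each time and 1, 3, 1 or 1 lower. SGK1, a kinase related to AKT, rose from 214 and 194 CPM to 279 and 259 CPM (0.40 ± 0.07, adjusted p = 0.00032, edgeR). The lipid phosphatase INPP4B (-0.26 ± 0.06) and the RAC exchange factor PREX1 (-0.22 ± 0.06) were lower, and neither call held when any 1 of the 4 libraries was left out, with adjusted p of 0.102 to 0.123 and 0.097 to 0.400. The largest fall of the list was that of DDIT4, also known as REDD1, an inhibitor of mTORC1 that is itself induced by hypoxia, ATF4 and other stress signals. DDIT4 (chr10:72273919-72276036, plus strand) was at 145 and 144 CPM in Control and at 55.2 and 54.1 CPM in PI3Ki, a fall of 1.41 ± 0.07 on the log2 scale or 2.65-fold (adjusted p = 7.5e-13, edgeR). The libraries of a condition lay close together and the conditions far apart. With cells thinned to 5000 UMIs, 43.2% and 44.5% of Control cells had a DDIT4 UMI and 21.4% and 20.4% of PI3Ki cells. Without thinning these shares were 77.6% and 79.5% against 50.5% and 53.4%. They come from the same counts as the sums and fall with the level per cell.

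Genes of glycolysis and of the response to hypoxia fell together. HIF1 is the transcription factor that induces many of them, and its alpha subunit is translated in an mTORC1-dependent manner. Of the 31 members tested 27 were lower and 0 higher, beside 6.22% lower over all genes, and the median was -0.45. Against the TGFBRi libraries 20 were lower and 0 higher, beside 8.52% lower over all genes, and the median was -0.30. At an unadjusted p under 0.05 the edgeR test gave 28 lower and 0 higher, and DESeq2 gave 26 and 0 at an adjusted p under 0.05. Over all 17914 genes these counts were 2275 lower and 2199 higher by edgeR, and 791 and 657 by DESeq2. The summed level of the list was 13200 and 12590 CPM in Control and 9709 and 10070 CPM in PI3Ki. PFKL, PFKFB3, ANKRD37 and EGLN3, named since they are the remaining 4, had values between -0.22 and -0.06 and were not called. Leaving out 1 library at a time left between 18 and 22 lower members, and 17 were lower without the replicate term.

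**Figure D2:**
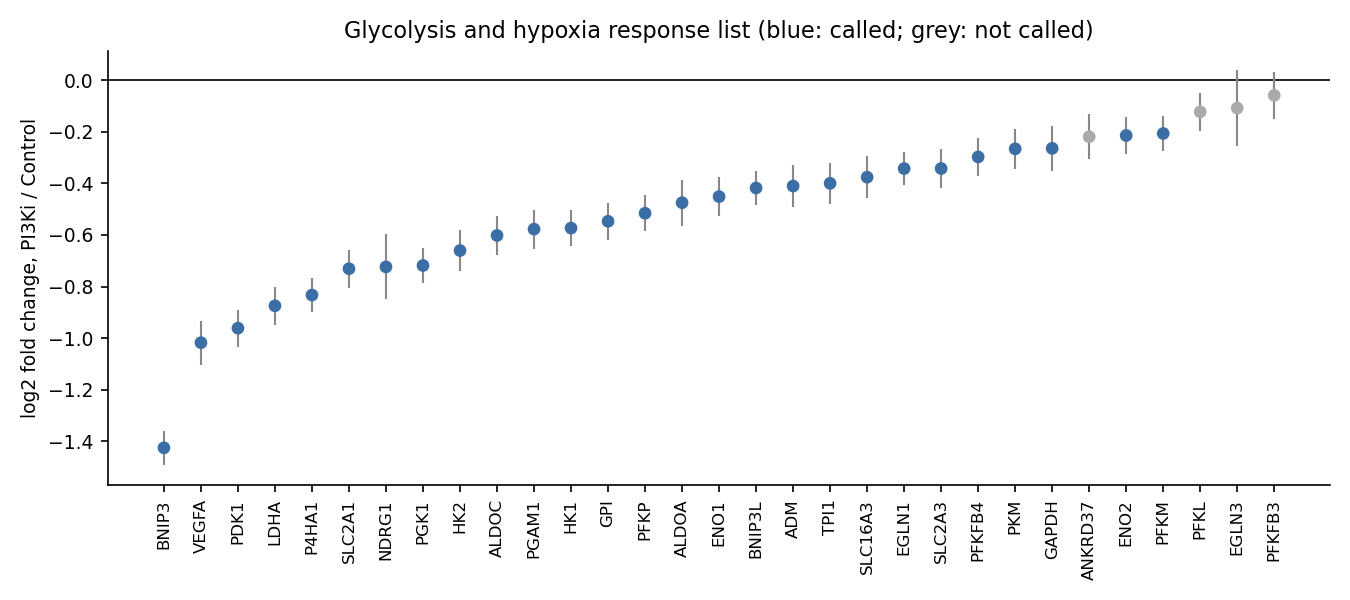
Log2 difference of PI3Ki and Control for each of the 31 genes of glycolysis and the hypoxia response, with the standard error of the edgeR fit as bars (2 libraries a side). All 31 values lie below 0, from -1.43 for BNIP3 to -0.06 for PFKFB3.

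BNIP3, a receptor for mitophagy, had the largest fall of any gene of at least 10 CPM. BNIP3 (chr10:131967684-131981967, minus strand) was at 200 and 232 CPM in Control and at 74.6 and 85.9 CPM in PI3Ki, a fall of 1.43 ± 0.07 or 2.69-fold (adjusted p = 7.5e-13, edgeR). LDHA (chr11:18394560-18408425, plus strand), which turns pyruvate into lactate, was at 795 and 895 CPM against 439 and 482 CPM, a fall of 0.87 ± 0.07 (adjusted p = 1.4e-08, edgeR). PDK1 (chr2:172555373-172608669, plus strand), the mitochondrial kinase that restrains pyruvate dehydrogenase, was at 31.6 and 31.1 CPM against 17.2 and 15.1 CPM, a fall of 0.96 ± 0.07 (adjusted p = 2.8e-09, edgeR). P4HA1, a subunit of prolyl hydroxylase for collagen, was at 81.3 and 79.8 CPM against 43.8 and 46.6 CPM (-0.83 ± 0.06). None of the 4 genes overlapped between the conditions. Part of the difference from Control was seen under the other treatments. Against Control, BNIP3, LDHA, PDK1 and P4HA1 were at -0.42, -0.28, -0.36 and -0.34 in TGFBRi. In TGFB1 they were at -0.42, -0.27, -0.33 and -0.04. The glucose transporter SLC2A1 (-0.73), the glycolytic enzymes HK2 (-0.66) and PGK1 (-0.72) and the growth factor VEGFA (-1.02), examples chosen after their values were seen, were lower as well, while GAPDH was near the threshold (-0.26, adjusted p = 0.050, edgeR).

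The core of the hypoxia response element, ACGTG, was looked for in the same promoter windows on both strands, a motif that was chosen after the values were seen. It is in 41.5% of the 53 windows of the list, as against 21.4% of all windows and 24.8% of the windows of the genes tested. By gene, 18 of its 27 genes with a window hold it, 66.7%, as against 24.9% of all genes and 31.5% of the genes tested. Among all lower genes it is in 24.1% of windows and 34.1% of genes, and among all higher genes in 23.1% and 28.5%. The list was put together as hypoxia genes, so its share describes the list and not these data. The 3 genes of the list among the 12 largest falls, BNIP3, PDK1 and LDHA, all hold it, and the windows of BNIP3 and PDK1 are shown since these are the furthest changed. The BNIP3 window is chr10:131981874-131982173 (minus strand), where the motif lies on both strands and overlaps with itself in CACGTG, in capitals, 134 bases before the start. The PDK1 window is chr2:172555840-172556139 (plus strand), 1 of 2 windows of this gene, where the capitals mark CACGT, the reverse complement of the motif, 17 and 8 bases before the start. Both are from RefSeq on GRCh38.p14.
BNIP3 promoter: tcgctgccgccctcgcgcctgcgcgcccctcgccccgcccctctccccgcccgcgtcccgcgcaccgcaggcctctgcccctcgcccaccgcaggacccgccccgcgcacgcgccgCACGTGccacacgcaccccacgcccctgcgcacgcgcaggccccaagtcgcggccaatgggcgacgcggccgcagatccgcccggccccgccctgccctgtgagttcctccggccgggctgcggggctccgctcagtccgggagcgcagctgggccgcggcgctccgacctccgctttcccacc
PDK1 promoter: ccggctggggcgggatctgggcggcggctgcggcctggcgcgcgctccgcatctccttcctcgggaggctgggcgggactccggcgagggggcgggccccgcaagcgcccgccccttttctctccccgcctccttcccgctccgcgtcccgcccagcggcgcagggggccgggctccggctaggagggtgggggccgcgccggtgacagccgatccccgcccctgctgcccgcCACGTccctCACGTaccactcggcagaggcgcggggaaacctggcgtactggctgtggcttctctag
A match is a description of the window and no measure of binding.

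Further large falls were of genes outside that list. ME1, the cytosolic malic enzyme that supplies NADPH, was at 35.6 and 38.2 CPM in Control and at 14.7 and 16.9 CPM in PI3Ki (-1.22 ± 0.07, adjusted p = 1.1e-11, edgeR). GBE1, the glycogen branching enzyme, was at 30.5 and 32.5 CPM against 16.8 and 18.1 CPM (-0.85 ± 0.07). FN1, the matrix protein fibronectin, was at 43.6 and 50.5 CPM against 20.7 and 22.6 CPM (-1.12 ± 0.11, adjusted p = 2.3e-07, edgeR). These 3 genes were 2.33-fold, 1.81-fold and 2.17-fold lower with no overlap of the libraries. PLOD2, a lysyl hydroxylase of collagen (-0.996), the integrin subunit ITGB8 (-0.89), the kinase-like DIPK1C (-1.19) and the transcriptional coregulator CITED1 (-0.86) were also among the 12 largest falls. The 12, chosen by the sums of the same cells, had the same sign in both replicates of all 6 clusters.

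Targets of ATF4, the transcription factor of the amino acid response whose translation is promoted by mTORC1, were lower in 14 of 31 and higher in 1, beside 6.22% and 5.89% over all genes, with a median of -0.22. Another 6 members, aminoacyl-tRNA synthetases, were not in the table under the symbols used. PSAT1, which acts in serine synthesis, was at 31.4 and 33.8 CPM in Control and at 23.2 and 24.4 CPM in PI3Ki (-0.45 ± 0.07, adjusted p = 8.8e-05, edgeR). The neutral amino acid transporter SLC1A4 was at 47.3 and 46.3 CPM against 33.2 and 35.8 CPM (-0.44 ± 0.07, adjusted p = 0.00012, edgeR). Both genes were lower in each PI3Ki library than in each Control library. The number of lower members was 9, 7, 5 and 7 when Control r1, Control r2, PI3Ki r1 or PI3Ki r2 was left out, 5 without the replicate term and 21 with no TMM factors.

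**Figure D3:**
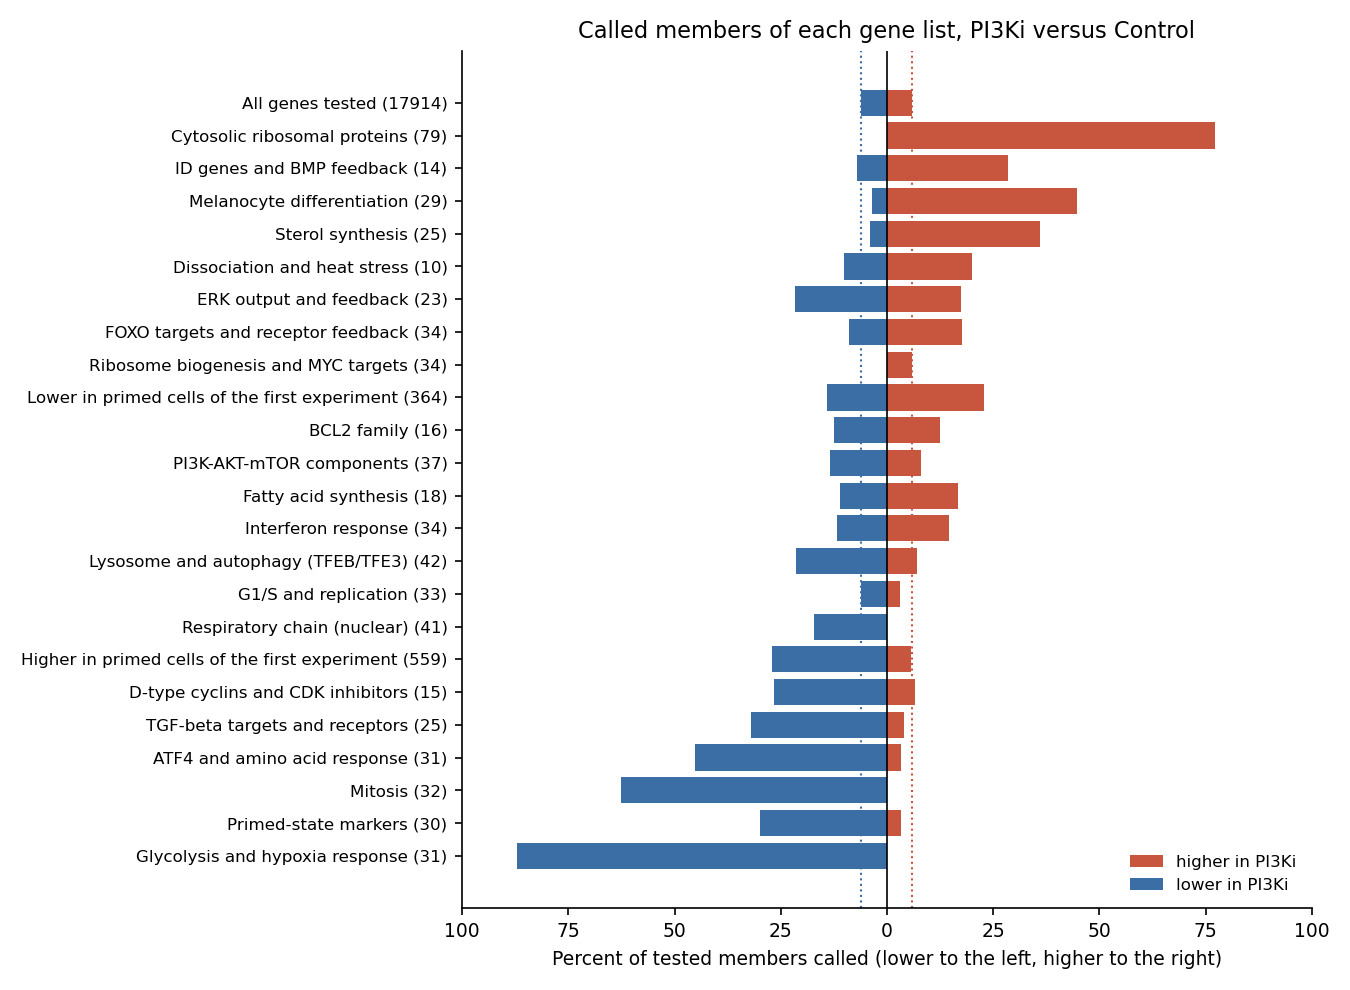
Members called higher (right) and lower (left) by edgeR in each gene list as bars in percent of the members tested (their number in parentheses), with dotted lines at the percent over all genes tested (5.89% higher and 6.22% lower). Cytosolic ribosomal proteins and melanocyte differentiation stand on the higher side and glycolysis and hypoxia, mitosis and ATF4 targets on the lower side.

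Melanocyte differentiation genes were higher in 13 of 29 and lower in 1, beside 5.89% and 6.22% over all genes, with a median of 0.21. PMEL, the fibril protein of the melanosome, was at 2566 and 2323 CPM in Control and at 3572 and 3788 CPM in PI3Ki (0.59 ± 0.08, adjusted p = 2.5e-05, edgeR). APOE was at 232 and 178 CPM against 383 and 296 CPM (0.73 ± 0.07, adjusted p = 1.4e-07, edgeR). TYR, the first enzyme of melanin synthesis, was at 56.4 and 58.9 CPM against 77.9 and 78.8 CPM (0.44 ± 0.07, adjusted p = 8.8e-05, edgeR). The groups did not overlap for any of these genes. DCT, a later enzyme of the same pathway, was the member that was lower, at 390 and 396 CPM against 247 and 275 CPM (-0.59 ± 0.07, adjusted p = 3.0e-06, edgeR). The lineage factors SOX10 and MITF, which drive these genes, were not called, with 136 and 131 CPM against 141 and 146 CPM for SOX10 (0.11 ± 0.07) and 325 and 363 CPM against 351 and 392 CPM for MITF (0.11 ± 0.07). In single-library omissions the number of higher members was between 6, without PI3Ki r2, and 12, without PI3Ki r1, and it was 7 without the replicate term. With no TMM factors 12 were higher and 4 lower, with a median of 0.11.

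Markers of the primed state were still measured in drug-susceptible cells. The authors' clusters had already taken out the cells highest in them, so what follows is the residue. Of 30 markers tested 9 were lower and 1 was higher, beside 6.22% and 5.89% over all genes, with a median of -0.36. EGFR was at 1.23 and 1.45 CPM in Control and at 0.715 and 0.682 CPM in PI3Ki, a fall of 0.96 ± 0.17 (adjusted p = 0.00049, edgeR), which was not called without PI3Ki r2 (adjusted p = 0.063). NGFR was at 0.403 and 2.68 CPM against 0.328 and 0.647 CPM, so that the groups overlapped and the call (-1.67 ± 0.25) rested on Control r2 and PI3Ki r2, without which the adjusted p was 0.253 and 0.328 (edgeR). NT5E was at 15.0 and 27.5 CPM against 10.9 and 21.4 CPM, higher in r2 than in r1 in both conditions, and the fall of 0.40 ± 0.07 was called with the replicate term and not without it (adjusted p = 0.00071 and 0.625, edgeR) or without PI3Ki r1 (0.054). AXL was at 0.208 and 0.586 CPM against 0.164 and 0.210 CPM and was not called (-1.07 ± 0.37, adjusted p = 0.062, edgeR). FOSL1, an AP-1 subunit, fell from 57.7 and 67.8 CPM to 37.7 and 51.7 CPM (-0.50 ± 0.09, adjusted p = 0.00049, edgeR). The number of lower markers was 13, 6, 7 and 5 without Control r1, Control r2, PI3Ki r1 or PI3Ki r2, 3 without the replicate term, 18 with no TMM factors, and 21 with the primed cells included. The median of the list was -0.20 without Control r2.

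A longer list came from the first experiment, in which untreated WM989 cells were profiled, as the genes that differed by at least 2-fold between primed and drug-susceptible cells in both of its replicates and reached 20 CPM. Of 559 such genes that were higher in primed cells, 151 were lower and 31 higher after PI3K inhibition, which is 27.0% and 5.55% beside 6.22% and 5.89% over all genes. With no TMM factors 252 were lower and 21 higher, and without the replicate term 59 and 11. Of 364 genes that were lower in primed cells, 83 were higher and 51 lower, with a median of 0.04, and this balance turned with no TMM factors to 48 higher and 97 lower with a median of -0.06. ME1, FN1 and PLOD2 belong to the first set, and C11orf96 to the second, as does CYP7B1, an oxysterol hydroxylase that rose by 0.83 ± 0.07. CITED1 belongs to the second set as well and fell. Leaving out a library left 76 to 119 genes of the first set lower and 37 to 52 of the second set higher, with the lowest counts without PI3Ki r2 and Control r2. The authors' score of their primed gene set, a rank-based score per cell, had a mean of 0.379 and 0.381 in Control and 0.377 and 0.379 in PI3Ki. It was 0.00244 lower in PI3Ki in both replicates, less than the spread over the cells of a library. Within a condition r1 and r2 differed by nearly as much. Both PI3Ki means lay below both Control means, though PI3Ki r2 at 0.3789 was only just under Control r1 at 0.3791. The exact permutation test gave a two-sided p of 0.33, the smallest that 2 against 2 libraries can give.

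Most genes of the cytosolic ribosome were higher. Of 79 cytosolic ribosomal protein genes, all tested, 61 were higher and 0 lower beside 5.89% and 6.22% over all genes, with a median of 0.32. The edgeR test gave 72 higher and 0 lower at an unadjusted p under 0.05, and DESeq2 gave 61 and 0. Over all 17914 genes these counts were 2199 higher and 2275 lower by edgeR, and 657 and 791 by DESeq2. They took 22.6% and 21.8% of all UMIs in Control and 25.8% and 26.6% in PI3Ki. RPL29 was at 2441 and 2320 CPM in Control and at 3346 and 3481 CPM in PI3Ki (0.52 ± 0.08, adjusted p = 0.0002, edgeR), and RPS4X at 2307 and 2273 CPM against 3013 and 3331 CPM (0.47 ± 0.08, adjusted p = 0.00051, edgeR). The values of neither gene overlapped. The number of calls depended on single libraries and on which cells were summed. It was 23, 4, 58 and 8 without Control r1, Control r2, PI3Ki r1 or PI3Ki r2, 20 without the replicate term, 53 with no TMM factors, and 10 without the cells of clusters 6 and 11, where the median was 0.17. Genes of ribosome biogenesis and MYC targets, in contrast, had 2 of 34 higher and none lower, with 4 higher and 1 lower at an unadjusted p under 0.05 by edgeR and 2 and 0 by DESeq2. Those 2 were MXD4, an antagonist of MYC (0.78 ± 0.09), and ODC1, the first enzyme of polyamine synthesis (0.37 ± 0.07), which was not called without Control r1 (adjusted p = 0.050) or PI3Ki r2 (0.077, edgeR).

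Sterol synthesis genes were higher in 9 of 25 and lower in 1, beside 5.89% and 6.22% over all genes, with a median of 0.16. HMGCS1 was at 30.2 and 29.2 CPM in Control and at 38.2 and 41.7 CPM in PI3Ki (0.43 ± 0.08), and CYP51A1, a lanosterol demethylase, at 184 and 190 CPM against 236 and 254 CPM (0.39 ± 0.07). Both were called with an adjusted p of 0.00072 and 0.00085 by edgeR, though neither was without PI3Ki r2 (0.1002 and 0.051). The number of higher members was 6, 5, 7 and 2 without Control r1, Control r2, PI3Ki r1 or PI3Ki r2, 4 without the replicate term, and 4 with no TMM factors, where the median was 0.06. Of fatty acid synthesis genes 3 of 18 were higher and 2 lower, with 2, 1, 0 and 0 higher without Control r1, Control r2, PI3Ki r1 or PI3Ki r2, 0 higher without the replicate term, and 1 higher and 4 lower with no TMM factors. The desaturase SCD fell from 337 and 325 CPM to 257 and 249 CPM (-0.39 ± 0.07, adjusted p = 0.00049, edgeR), and FASN was at 169 and 151 CPM against 204 and 191 CPM (0.30 ± 0.07), a rise that was not called without Control r2, PI3Ki r1 or PI3Ki r2 (adjusted p = 0.259, 0.103 and 0.058, edgeR).

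The cell cycle calls of the authors gave more G1 cells after PI3K inhibition. The share of cells in G1 was 33.4% (95% Clopper-Pearson interval 32.0 to 34.9) and 31.3% (29.8 to 32.9) in Control and 43.5% (41.9 to 45.1) and 43.8% (42.5 to 45.1) in PI3Ki. In S it was 37.2% and 38.5% against 33.9% and 32.4%, and in G2M 29.4% and 30.2% against 22.6% and 23.9%. The shares did not overlap between conditions in any phase. G1 was 11.3 percentage points higher on average, 10.1 in r1 and 12.5 in r2, and the differences were -4.70 points in S and -6.58 points in G2M. The exact permutation test over 4 libraries gave a two-sided p of 0.33 for each phase, the smallest it allows, so this test cannot reach 0.05. The intervals cover counting error of cells only.

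**Figure D4:**
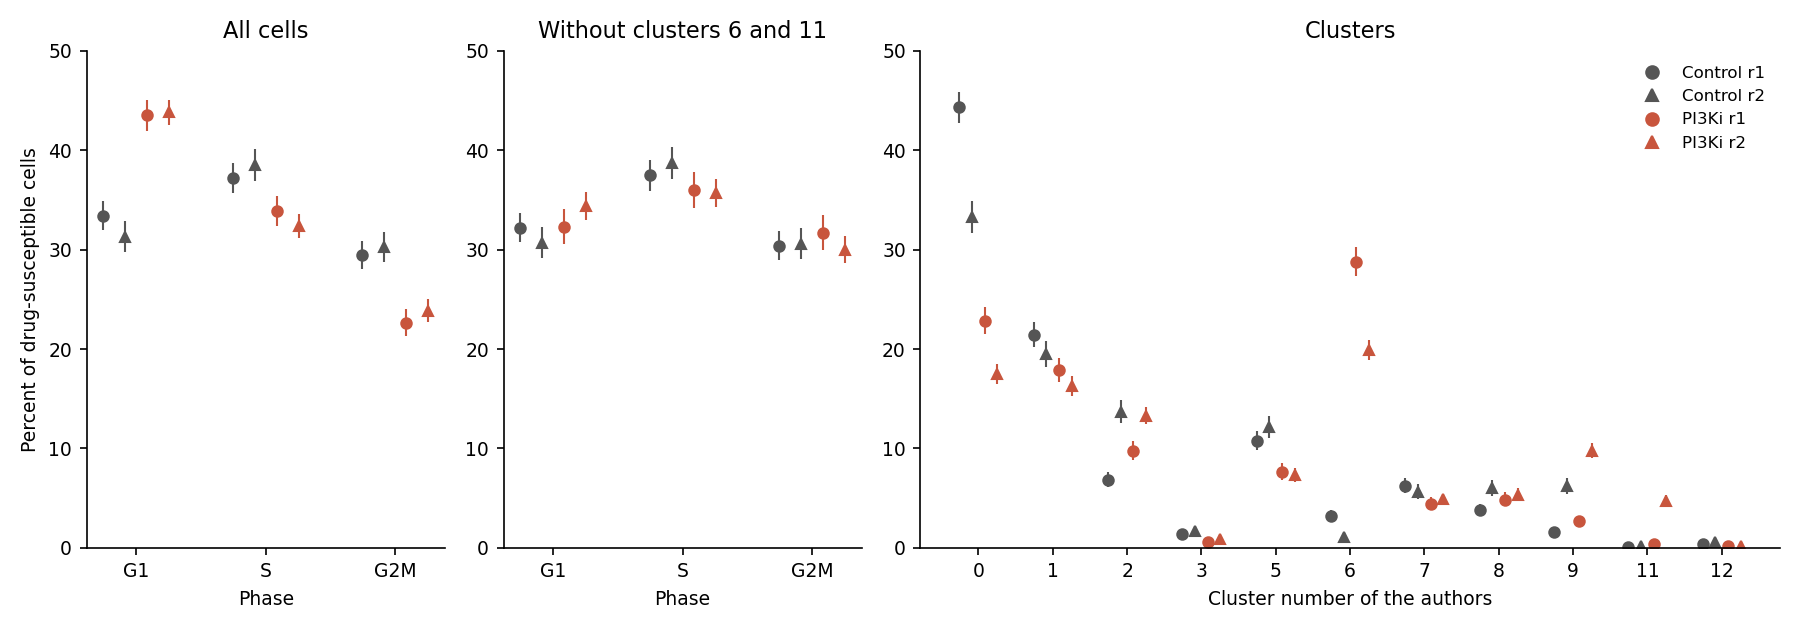
Percent of drug-susceptible cells in each cell cycle phase with and without clusters 6 and 11, and in each of the authors' clusters, with 1 point per library and 95% Clopper-Pearson intervals as bars. G1 cells were 33.4% and 31.3% in Control and 43.5% and 43.8% in PI3Ki, and cluster 6 held 3.18% and 1.11% against 28.8% and 19.9%.

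The authors' clusters were made from the expression of the same cells, so their shares are given as values without a test. Cluster 6 held 3.18% and 1.11% of Control cells and 28.8% and 19.9% of PI3Ki cells. Cluster 0 held 44.3% and 33.3% against 22.9% and 17.5%. Cluster 11 held 0.0493% and 0.198% against 0.391% and 4.75%, with 271 of its cells in PI3Ki r2 and 15 in PI3Ki r1, so that it was mostly of 1 library. Cluster 9 differed more between replicates than between conditions, with 1.63% and 6.21% in Control and 2.66% and 9.76% in PI3Ki. Between 69.8% and 76.9% of the cells of cluster 6 were in G1, whichever library they came from. Without the cells of clusters 6 and 11 the share of G1 cells was 32.2% and 30.7% in Control and 32.3% and 34.4% in PI3Ki, 1.88 points higher on average, and that of G2M cells was 30.4% and 30.6% against 31.7% and 29.98%, 0.37 points higher, which turns its direction.

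Within the PI3Ki libraries, the G1 cells of cluster 6 (783 and 848 cells) can be set beside the G1 cells outside clusters 6 and 11 (878 and 1478 cells) as a description, without a test, by genes chosen after their values were seen. GAS5, a host of small nucleolar RNAs, was at 861 and 805 CPM in the former and at 426 and 390 CPM in the latter, in CPM without TMM factors. ID3 was at 200 and 217 CPM against 76.2 and 120 CPM. The neuropeptide precursor VGF was at 215 and 276 CPM against 1283 and 1649 CPM. The proliferation marker MKI67 was at 11.3 and 17.3 CPM against 69.9 and 53.6 CPM, and CDC20, BIRC5 and CCNB1, which act in mitosis, were lower as well. These genes differed in both replicates in the same direction. APOD, DDIT4 and BNIP3 differed less between these cells, at 27.7 and 30.3 against 29.6 and 29.5 CPM for APOD, 49.99 and 46.1 against 55.2 and 55.1 CPM for DDIT4 and 61.2 and 63.4 against 71.5 and 86.5 CPM for BNIP3.

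Genes of mitosis were lower in 20 of 32 and higher in 0, beside 6.22% lower over all genes, with a median of -0.25. By edgeR 26 were lower and 0 higher at an unadjusted p under 0.05, and DESeq2 gave 21 and 0. Over all 17914 genes these counts were 2275 lower and 2199 higher by edgeR, and 791 and 657 by DESeq2. MKI67 was at 278 and 294 CPM in Control and at 212 and 223 CPM in PI3Ki (-0.40 ± 0.07, adjusted p = 0.00035, edgeR), and ANLN, a scaffold of the cleavage furrow, at 64.8 and 74.3 CPM against 49.1 and 53.8 CPM (-0.43 ± 0.06, adjusted p = 7.3e-05, edgeR). No library of one condition reached the other for either gene. These calls depended on which cells were summed. The phases are called on the expression of the same cells, so fixing the phase can by itself remove a difference in mitotic genes. When the same number of cells of each phase was taken from every library 1 member was lower, in S cells alone 1, in G2M cells alone 2 and in G1 cells alone 16. Without clusters 6 and 11 none was called, with 2 higher and 2 lower at an unadjusted p under 0.05 by edgeR and a median of 0.01. Of the PI3Ki cells of cluster 6, 0.09% and 0.18% were in G2M. Leaving this cluster out thus takes cells outside G2M mainly from the PI3Ki side. Leaving out Control r1, Control r2, PI3Ki r1 or PI3Ki r2 left 9, 13, 9 or 6 lower members, and leaving out the replicate term 9, while 30 were lower with no TMM factors.

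Across the same subsets of cells the other lists moved in different ways. Over all genes 1007 of 14866 were lower in G1 cells, 768 of 15445 in S cells and 511 of 14766 in G2M cells, and 927, 690 and 446 were higher. With equal phases 927 of 17003 were lower and 831 higher, and without clusters 6 and 11 792 of 17919 were lower and 592 higher. Glycolysis and hypoxia genes were lower in 26, 24 and 21 of 31 in G1, S and G2M cells, in 25 with equal phases and in 25 without clusters 6 and 11. Melanocyte differentiation genes were higher in 13 of 28, 13 of 28 and 12 of 28 in the 3 phases and in 12 of 29 without those clusters. Ribosomal protein genes were higher in 71, 44 and 17 of 79 in the 3 phases and in 10 without the clusters. The median of the ID and BMP list was 0.28 in G1 and 0.16 in S cells and -0.10 in G2M cells. The 12 largest rises and the 12 largest falls were called in the same direction in each of these subsets, as could be foreseen from their choice in the same cells.

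**Figure D5:**
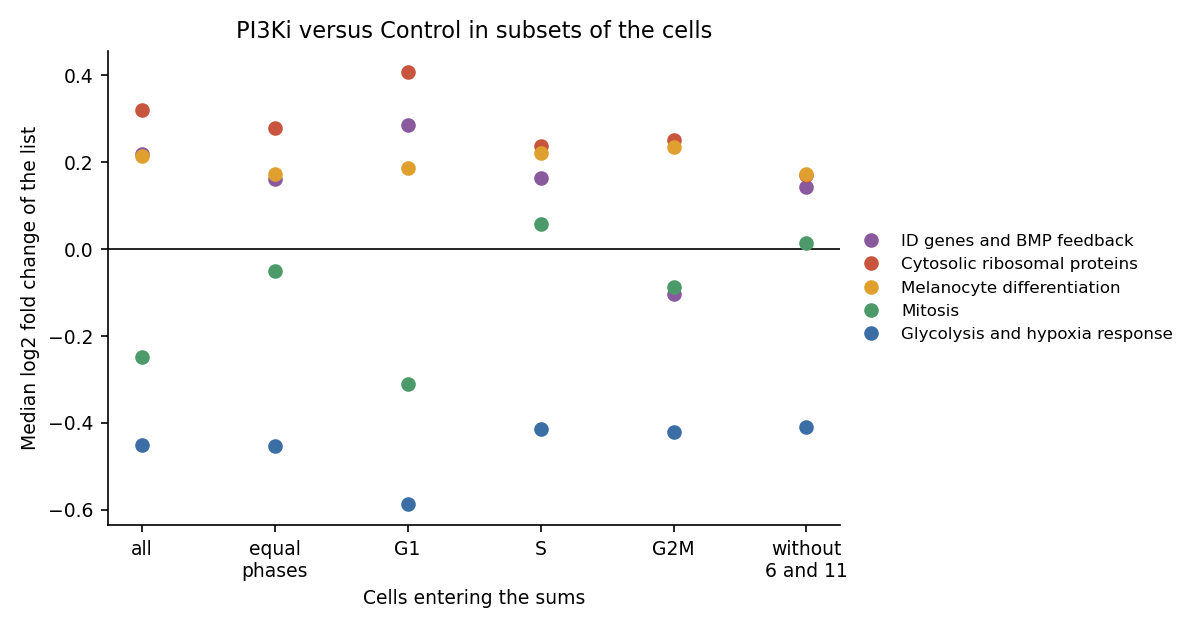
Median log2 difference of PI3Ki and Control over the members of 5 gene lists, with 1 point per list, when different sets of drug-susceptible cells enter the sums (all, equal numbers per phase, G1, S or G2M alone, without clusters 6 and 11). The median of the mitosis list goes from -0.25 with every cell to -0.05 with equal phases and 0.01 without clusters 6 and 11, while that of glycolysis and hypoxia stays between -0.59 and -0.41.

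Further lists of the cell cycle and of signalling had calls in both directions, beside 5.89% higher and 6.22% lower over all genes. Among genes of the G1 to S transition and replication 1 of 33 was higher and 2 were lower, a count that depended on the setting, with 14 lower with no TMM factors, 11 with the 4 Control and PI3Ki libraries alone, 16 of 32 in G1 cells and 0 without the replicate term. Among D-type cyclins and CDK inhibitors 1 of 15 was higher and 4 were lower, with 8 lower with no TMM factors, 1 or 2 with a library left out and 0 without the replicate term. CCND1, cyclin D1, was at 442 and 482 CPM in Control and at 360 and 393 CPM in PI3Ki (-0.30 ± 0.07, adjusted p = 0.0067, edgeR), and this call was lost when any 1 of the 4 libraries was left out, with adjusted p between 0.064 and 0.114. CDKN1A, which encodes the CDK inhibitor p21, was at 1.18 and 1.17 CPM against 0.865 and 0.856 CPM and was not called (-0.44 ± 0.17, adjusted p = 0.090, edgeR). Of genes of ERK output 4 of 23 were higher and 5 lower, with 1 or 2 higher and 3 or 4 lower when a library was left out and 0 and 0 without the replicate term. The ERK feedback genes DUSP6, at 88.3 and 89.5 CPM against 94.9 and 103 CPM (0.15 ± 0.06), and SPRY2, at 42.6 and 45.3 CPM against 46.4 and 48.3 CPM (0.11 ± 0.06), were not called. IER3 (-0.38 ± 0.08) and IL1RAP (-0.53 ± 0.08) were lower. Of TGF-beta targets and receptors 8 of 25 were lower and 1 was higher, among them BHLHE40, SMAD3 and TGFBR1 at -0.40, -0.29 and -0.25. The median of the list, -0.17, leaned on single libraries, being -0.29, -0.01, -0.02 and -0.24 without Control r1, Control r2, PI3Ki r1 or PI3Ki r2, and was 0.08 in G1 cells. SMAD3 and TGFBR1 were not called when any 1 of the 4 libraries was left out (adjusted p between 0.058 and 0.297, edgeR), nor BHLHE40 without PI3Ki r2 (0.060). The count of lower genes was 5, 2, 3 and 1 without the same 4 libraries in that order, and 3 without the replicate term.

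Set directly against the other kinase inhibitor, drug-susceptible PI3Ki cells had 1521 genes that were higher and 1527 that were lower than in the 11113 drug-susceptible TGFBRi cells, 8.49% and 8.52% of the genes tested. The PI3Ki libraries are shared with the comparison above, so the values are given side by side. ID3 was 4.78 higher on the log2 scale than in TGFBRi cells and 1.76 higher than in Control cells. COL9A3, at 19.0 and 15.6 CPM in TGFBRi, was 2.93 and 0.96 higher. DDIT4, at 149 and 151 CPM in TGFBRi, had differences of -1.46 from TGFBRi and -1.41 from Control, and BNIP3, at 151 and 171 CPM in TGFBRi, of -1.005 and -1.43. TXNIP, at 44.5 and 42.4 CPM in TGFBRi, was 0.59 and 0.92 higher. For each of these 5 genes both PI3Ki libraries lay outside the range of the TGFBRi libraries. Without PI3Ki r1 or PI3Ki r2 the comparison gave 849 or 495 higher and 824 or 628 lower genes.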

How the data were processed

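Cell Ranger with the hg38 genome gave UMI counts, which the authors aggregated without depth normalization and deposited. Versions and annotation were not given in the sources used here. Before that, cells with too few or too many genes, the latter as likely doublets, had been removed in Seurat V3, as had cells by the percent of mitochondrial UMIs, which the authors deposited per cell with clusters, phases and a UCell score. No doublet caller was run.

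Counts were summed per library and tested with edgeR 4.0.16 (R 4.3.3), a quasi-likelihood test with TMM factors, filterByExpr, terms for condition and replicate, 3 residual degrees of freedom, Benjamini-Hochberg adjustment and a threshold of 0.05. The median of the prior degrees of freedom, the weight of the variation shared over genes, was 19.7. Standard errors were the log2 difference divided by the square root of F. DESeq2 1.42.0 was an alternative, beside others of filter, scaling, libraries and cells. Shares were compared in Python 3.11.15 with scipy 1.17.1. Library totals were 76751195 and 77745874 UMIs in Control and 69954297 and 121456243 in PI3Ki. The procedure was tested on simulated data.

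Replicate numbers pair the libraries, since the wells were split over the plates, and the deviations of r2 from r1 correlated over 7801 genes with r of 0.152 to 0.645 between every 2 conditions. Named were the 12 largest rises and 12 largest falls of at least 10 CPM on average that had the same sign in both replicates, up to 4 called members of at least 10 CPM in each list, and 25 fixed genes. Gene positions are from GENCODE on hg38, matched by symbol. The members, lists and tests were chosen with earlier results of these data known. Some genes that this rule names are not reported here.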

Additional observations from a re-analysis of the deposited data

How the results depend on the processing

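With DESeq2, 657 genes were higher than in Control and 2011 differed from TGFBRi. Without the replicate block, which pairs libraries of the same well, the counts were 249 higher and 321 lower, and 1232 against TGFBRi, and 31 of the 98 named genes that had been called were no longer called. With only the 4 Control and PI3Ki libraries in the fit 2120 were higher and 2379 lower. With no TMM factors, a setting chosen after the data had been seen, 583 were higher and 2825 lower. Leaving out 1 library at a time gave 271 to 574 higher, 361 to 663 lower and, with the TGFBRi libraries among those left out, 1123 to 3154 against TGFBRi, with the smallest counts without PI3Ki r2, where 32 of the 98 named genes lost their call. In S cells alone 690 were higher, and in G2M cells alone 446 were higher, 511 lower and 1585 different from TGFBRi. Without clusters 6 and 11, 592 were higher, and the differences in phase shares were 1.88 percentage points in G1, -2.25 in S and 0.37 in G2M, the last reversed. The difference in G2M with 1 library left out was between -7.20 and -5.96. Of the named genes, HSPA1A was reversed in G1 cells alone (-0.23, adjusted p = 0.198, edgeR) and TK1 in G2M cells alone (0.032, adjusted p = 0.886, edgeR). The cause was not tested. The 24 genes with the largest changes were called in the same direction under every alternative that refits the test. They were chosen as the largest called changes of the same libraries, so this outcome was largely set by the choice.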

Other observations

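Lysosome and autophagy genes, many of them targets of TFEB and TFE3 that mTORC1 restrains, were higher in 3 of 42 and lower in 9, beside 5.89% and 6.22% over all genes. The lower members were 5, 6, 4 and 6 without Control r1, Control r2, PI3Ki r1 or PI3Ki r2, 4 without the replicate term and 14 with no TMM factors, and 1 was higher without PI3Ki r2. The lysosomal membrane protein LAMP1 was at 72.7 and 70.2 CPM in Control and at 50.2 and 50.3 CPM in PI3Ki (-0.51 ± 0.07, adjusted p = 1.2e-05, edgeR). The autophagy adaptor SQSTM1 went the other way, with 373 and 348 CPM against 497 and 514 CPM (0.49 ± 0.08, adjusted p = 0.00012, edgeR). The libraries of the conditions did not overlap for either gene. Nuclear genes of the respiratory chain had 7 of 41 lower and 0 higher, beside 6.22% and 5.89% over all genes. At an unadjusted p under 0.05 edgeR gave 16 and 0, and DESeq2 gave 8 and 0. Over all 17914 genes these counts were 2275 lower and 2199 higher by edgeR, and 791 and 657 by DESeq2. UQCRC2, a core subunit of complex III, was at 94.3 and 92.5 CPM against 72.7 and 74.7 CPM (-0.34 ± 0.06). The lower members of that list were 21 with no TMM factors, 18 with the 4 Control and PI3Ki libraries alone, and 1, 2 or 2 without Control r2, PI3Ki r1 or PI3Ki r2, and 2 without the replicate term.

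Of the BCL2 family 2 of 16 genes were higher and 2 lower, beside the same 5.89% and 6.22%, and 4, 1, 1 and 0 higher and 1, 1, 2 and 1 lower without Control r1, Control r2, PI3Ki r1 or PI3Ki r2. PMAIP1, which encodes the pro-apoptotic protein NOXA, fell from 36.8 and 48.3 CPM to 24.9 and 29.3 CPM (-0.65 ± 0.07, adjusted p = 9.9e-07, edgeR). The anti-apoptotic BCL2A1, also a MITF target, was at 29.9 and 31.1 CPM against 35.5 and 41.5 CPM (0.34 ± 0.07), a rise that was not called without PI3Ki r2 (adjusted p = 0.294, edgeR). Interferon response genes had 5 of 34 higher and 4 lower, beside 5.89% and 6.22% over all genes, and 3 higher and 10 lower with no TMM factors. Without Control r2, PI3Ki r1 or PI3Ki r2, 1, 1 or 3 were higher and 2, 5 or 1 lower. Among them was STAT2, a subunit of the interferon-activated factor ISGF3, at 9.35 and 9.35 CPM against 13.8 and 13.2 CPM (0.53 ± 0.08). Among 10 genes of dissociation and heat stress 2 were higher and 1 lower, with 0, 0, 1 and 0 higher without Control r1, Control r2, PI3Ki r1 or PI3Ki r2, and 0 without the replicate term or with no TMM factors. Of the cell type markers 5 of 10 melanocytic ones were higher and 1 lower, with 2 higher without PI3Ki r2 and 3 without Control r2 or without the replicate term. KRT8 (0.42 ± 0.08) and KRT18 (0.25 ± 0.07) were higher and LUM was lower (-0.44 ± 0.07), and of the leukocyte and endothelial markers 1 and 3 could be tested and none was called by edgeR, at an unadjusted p under 0.05 either, or by DESeq2. Of the KRT8 and KRT18 calls neither held without Control r2 or without PI3Ki r2. Without TMM factors, KRT8 was higher in both replicates in 1 of 6 clusters, with means from -0.31 in cluster 8 to 0.26 in cluster 2. KRT18 was so in 6 of 6.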
